A study of Mus musculus with 3 samples.

Results

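A set of 9 genes of the bone morphogenetic protein (Bmp) pathway was followed through single-cell transcriptomes of mouse small-intestinal epithelium. These were 3 ligands (*Bmp2*, *Bmp4*, *Bmp7*), the type I receptor *Bmpr1a*, 3 target genes (*Id1*, *Id2*, *Id3*) and 2 inhibitory Smads (*Smad6*, *Smad7*). The genes were chosen by name, as ligands, a receptor and known targets of one pathway, and all 9 were among the 27998 genes of the count matrices. In the adenoma cells, transcripts of the 3 Id genes were 3.55- to 11.4-fold more abundant than in the other crypt cells of the *LApc* library and 2.09- to 2.48-fold more abundant than in those of the *LApcL* library. The largest ratio was that of *Id2*, whose level in the other crypt cells was lower in *LApc* than in WT. Of the other *LApcL* crypt cells, 48.0% held a transcript of the adenoma markers *Sox17* or *Msx1*, and without them the *LApcL* ratios were larger. The adenoma cells were kept as they were, and *Msx1* is itself a Bmp target, so this choice selects on the pathway. Of the few *Bmp4* transcripts, 96.6% in *LApc* and 92.0% in *LApcL* were in adenoma cells, which were 13.0% and 59.5% of all kept cells. Of the transcripts of all genes, these cells held 9925683 of 62715703 in *LApc* and 105457591 of 156782313 in *LApcL*. As shares of all transcripts, *Bmp2*, *Bmp4*, *Bmp7* and *Smad7* were lower in adenoma cells of *LApcL* (day 21) than in those of *LApc* (day 29). By the same shares, *Id1* and *Id3* differed by 1.06-fold or less between these libraries. Of all genes with enough counts, 22.7% were at least 1.5-fold lower. Another scaling moved every ratio of this contrast up by 0.23 on the log2 scale, those of *Id1* and *Id3* included. Under it only *Bmp2* and *Bmp4* of the 9 genes were past that limit.

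Bmp ligands bind paired type I and type II receptors, which phosphorylate *Smad1*, *Smad5* and *Smad9*; these enter the nucleus with *Smad4* and switch on targets such as the Id genes. Id proteins lack a DNA-binding domain and hold basic helix-loop-helix factors in inactive pairs. *Smad6* and *Smad7* are themselves induced by the pathway and dampen it. In the small intestine, Bmp activity is known to be low at the crypt base, where stromal antagonists keep it down, and to increase toward the villus, where it favours differentiation over stem cell self-renewal.

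Each library came from small-intestinal cells of C57BL/6 mice that were sorted for the epithelial surface protein EpCAM. The mice were 7 to 8 weeks old and all 3 groups received 2 doses of 2 mg tamoxifen. WT (called so in the labels, with no allele given) and *LApcL* (the alleles Lgr5-CreERT2 and Apc fl/fl together with Lef1 fl/fl) were taken at day 21, and *LApc* (Lgr5-CreERT2;Apc fl/fl) at day 29, so that day and genotype cannot be told apart wherever *LApc* is compared. In *LApc* and *LApcL* cells, tamoxifen activates a Cre recombinase expressed from the *Lgr5* locus, which acts in intestinal stem cells. Crypts without recombined stem cells keep the floxed alleles intact, so both libraries can hold recombined and unrecombined epithelium. *Apc* is the scaffold that targets β-catenin for destruction, and *Lef1* is one of the Tcf/Lef factors that bring β-catenin to DNA. Each group was 1 library with no replicate, so no test between groups was possible, and the intervals given here reflect counting error alone and say nothing of how mice differ.

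The deposited matrices held 11453, 13214 and 17388 barcodes and 140181087, 79696291 and 191509615 unique molecular identifiers (UMIs, 1 per captured transcript) for WT, *LApc* and *LApcL*. After filtering, 10191, 9634 and 14509 cells remained, with medians of 9734, 6133 and 10168 UMIs per cell. Between 214 and 318 barcode sequences were shared by each pair of libraries. Cells were clustered without the 9 genes, and classes were called after their markers: other Wnt/TA-like (stem and transit-amplifying crypt cells), enterocyte-like, ileal enterocyte-like, goblet-like, Paneth-like, enteroendocrine-like and tuft-like. Adenoma-enriched cells were the 6 subclusters of Wnt/TA-like cells in which WT cells made up no more than 0.218% after weighting the libraries equally, and they held 3 WT, 1254 *LApc* and 8638 *LApcL* cells. Their summed adenoma markers lay between 540 and 1411 CPM (UMIs of a gene per 1000000 UMIs of all genes), against 17.8 to 128 in the other Wnt/TA-like subclusters. One cluster of cycling cells with goblet markers stayed unnamed. Among adenoma-enriched cells, *Lef1* stood at 21.8 CPM for *LApc* and 3.49 CPM for *LApcL*, and which part of the gene the reads came from was not examined.

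Cells outside the adenoma-enriched class were not free of adenoma transcripts. A UMI of *Sox17* or *Msx1*, which mark these adenomas, was found in 96.1% of adenoma-enriched *LApcL* cells, and also in 48.0% of other Wnt/TA-like, 31.8% of enterocyte-like and 77.6% of Paneth-like *LApcL* cells. In the WT classes the share was between 0% and 1.79%, and in *LApc* classes outside the adenoma between 1.54% and 7.03%. Of adenoma-enriched *LApc* cells, 56.8% held such a UMI, so that these markers do not cover the 2 adenomas equally. The source of the UMIs outside the adenoma was not tested. Levels and ratios of the 9 genes in *LApcL* were recomputed without those cells and are given where this changed a call, an overlap or an order named below, or moved a value of a result by over 1.5 times.

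RefSeq start-site windows (GRCm38.p6) were at hand for 5 of the 9 genes, namely *Bmp4*, *Bmpr1a*, *Id2*, *Id3* and *Smad6*. They are shown for *Id2* and *Id3*, which had the largest ratios between adenoma and other crypt cells among the Id genes, and for *Bmp4*, whose transcripts were nearly all in those cells. The 3 motifs below were searched on both strands in the 250 bases upstream of the start: a GC-rich Smad box (GGCGCC), the short Smad box (CAGAC, reverse GTCTG) and a Tcf/Lef box (CTTTGAT, reverse ATCAAAG). Capitals mark a match.
Id2, chr12:25096254-25096342, minus strand, 250 to 162 bases upstream: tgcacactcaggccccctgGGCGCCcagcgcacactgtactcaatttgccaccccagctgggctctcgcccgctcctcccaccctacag
Id3, chr4:136143642-136143671, plus strand, 180 to 151 bases upstream: ctgtcctcggcgtCAGACcagcctaaggaa
Id3, chr4:136143741-136143770, plus strand, 81 to 52 bases upstream: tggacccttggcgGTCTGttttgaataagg
Bmp4, chr14:46390670-46390919, minus strand, 250 to 1 bases upstream: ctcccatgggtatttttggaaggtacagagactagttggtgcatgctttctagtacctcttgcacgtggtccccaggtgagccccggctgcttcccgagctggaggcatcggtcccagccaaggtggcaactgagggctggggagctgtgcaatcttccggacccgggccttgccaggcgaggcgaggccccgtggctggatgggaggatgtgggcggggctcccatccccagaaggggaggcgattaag
*Id2* held a GC-rich Smad box 231 to 226 bases upstream, and *Id3* held the short box at 167 to 163 and, reversed, at 68 to 64 bases upstream, both inside an annotated *Id3* exon in GENCODE. *Bmpr1a* held a GC-rich box at 198 to 193 bases upstream. The matches of *Id2* and *Bmpr1a* also lie inside the spans that GENCODE gives these genes, outside their exons. The windows of *Bmp4* and *Smad6* held none of the 3 motifs. The Tcf/Lef box was in none of the 5 windows. Of 32851 windows of this length, 9.59% held GGCGCC, 42.2% held the short Smad box and 3.21% the Tcf/Lef box, so that a single match is common and is given as a description.

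In GENCODE M21 (GRCm38), *Bmp2* lies at chr2:133552159-133562885 and *Bmp7* at chr2:172868012-172940321, *Id1* at chr2:152736251-152737410, *Id2* at chr12:25093799-25097140 and *Id3* at chr4:136143497-136145755. *Smad6* lies at chr9:63953076-64022059, *Bmp4* at chr14:46383520-46390669 and *Bmpr1a* at chr14:34410734-34503341. No counted gene overlaps any of the 9 on the same strand. *Bmp4* overlaps *Gm15217* and *Gm15222* on the opposite strand, and *Bmpr1a* overlaps *Gm17110*.

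**Figure D1:**
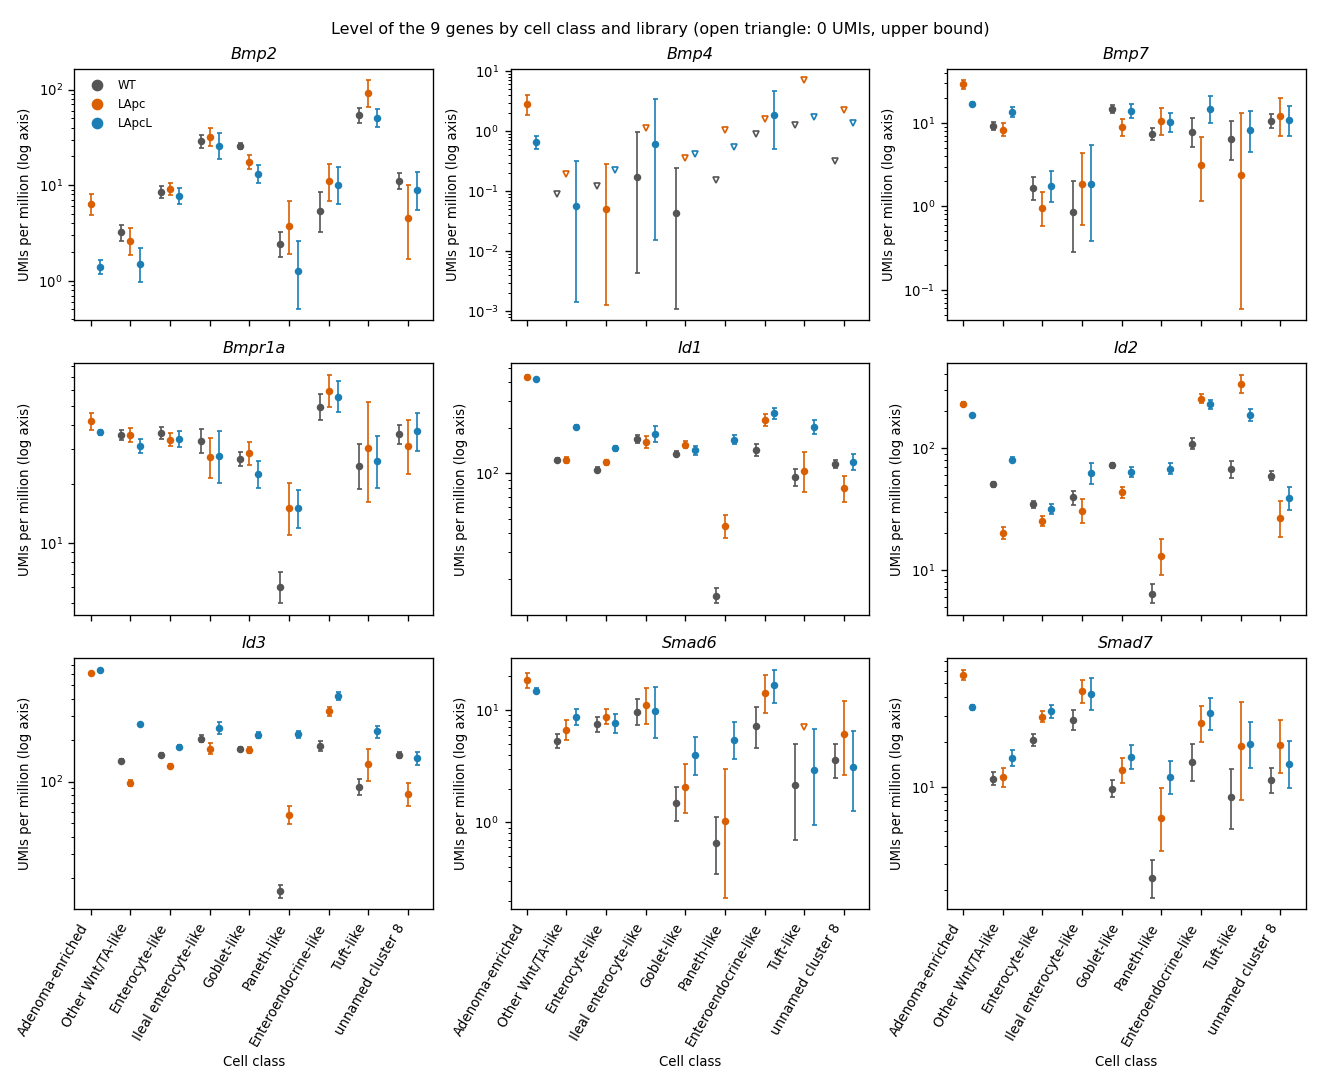
Level of each of the 9 genes (CPM, log axis) by cell class (horizontal axis) in the WT, LApc and LApcL libraries. Points are sums over the cells of 1 library and class, bars are exact Poisson 95% intervals, and open triangles mark the upper bound where no UMI was counted. The Id genes are highest in adenoma-enriched cells for Id1 (434 and 422) and Id3 (610 and 645), whereas Bmp2 is highest in tuft-like cells of all 3 libraries.

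The ligands had few UMIs, and the order of the classes differed between them. *Bmp2*, a ligand known from the differentiated epithelium, was highest in tuft-like cells, the chemosensory cells of the epithelium, at 53.8 CPM in WT (95% interval 44.8 to 64.0, 126 UMIs), 91.7 CPM in *LApc* (65.2 to 125, 39 UMIs) and 50.3 CPM in *LApcL* (40.2 to 62.1, 86 UMIs). Ileal enterocyte-like cells followed with 28.8, 31.9 and 25.8 CPM, and goblet-like cells with 25.7, 17.6 and 13.1 CPM. In all 3 libraries the interval of tuft-like cells lay above that of every other class; ileal and goblet-like cells overlapped in WT but not in *LApc* or *LApcL*. *Bmp2* was low in other Wnt/TA-like cells, at 3.21, 2.60 and 1.49 CPM, and in Paneth-like cells, at 2.42, 3.78 and 1.27 CPM. After each cell was thinned to 3000 UMIs, 17.6% of WT tuft-like cells and 1.17% of other WT Wnt/TA-like cells held a *Bmp2* UMI, so the contrast was present at equal depth per cell.

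*Bmp4*, a ligand made mostly by stroma in the normal gut, had 28 UMIs in adenoma-enriched cells of *LApc* (2.82 CPM, 1.87 to 4.08) and 69 in those of *LApcL* (0.654 CPM, 0.509 to 0.828). These were 96.6% and 92.0% of all *Bmp4* UMIs of the libraries. Of the UMIs of all genes, adenoma-enriched cells held 9925683 of 62715703 in *LApc* and 105457591 of 156782313 in *LApcL*. Elsewhere each class held 0 or 1 *Bmp4* UMI, except enteroendocrine-like cells of *LApcL* with 4 (1.84 CPM, 0.501 to 4.71), which overlapped with adenoma-enriched cells. WT held 2 *Bmp4* UMIs in all, in 2 classes, so the gene was close to the detection limit outside the adenoma. The stromal markers *Col1a1*, *Col3a1* and *Lum* had no UMI in adenoma-enriched cells of either library, and all 7 stromal markers together came to 6.15 (*LApc*) and 0.958 CPM (*LApcL*). Endothelial markers summed to 49.0 and 29.7 CPM there, with 4 and 5 of 6 detected; their part in the *Bmp4* level was not tested.

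*Bmp7* was spread over secretory and crypt cells. In WT it was highest in goblet-like cells at 14.7 CPM (13.1 to 16.3, 334 UMIs), followed by the unnamed cluster at 10.6 CPM and other Wnt/TA-like cells at 9.21 CPM. Adenoma-enriched cells stood first in both mutant libraries, at 28.9 CPM (25.7 to 32.5) in *LApc* and 16.9 CPM (16.1 to 17.7) in *LApcL*. Their interval lay above every other class in *LApc*, whereas in *LApcL* it overlapped those of enteroendocrine-like cells at 14.7 CPM and goblet-like cells at 14.0 CPM. *Bmp7* was lowest in both enterocyte classes of all 3 libraries, between 0.863 and 1.85 CPM. In *LApc*, enteroendocrine-like cells with 6 UMIs (3.14 CPM) and tuft-like cells with 1 UMI (2.35 CPM) overlapped with them.

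*Bmpr1a*, the type I receptor for *Bmp2* and *Bmp4*, was found in every class. It was highest in enteroendocrine-like cells of all 3 libraries, at 49.4 (WT), 59.7 (*LApc*) and 55.7 CPM (*LApcL*). The interval lay above every other class in WT and *LApcL*, and in *LApc* it overlapped that of tuft-like cells, which rested on 13 UMIs. Paneth-like cells were lowest, at 5.99, 15.1 and 15.1 CPM. The remaining classes lay between 22.4 and 41.6 CPM, and their neighbours in the order of levels overlapped. Paneth-like cells also stood apart in depth, with a median of 40288 UMIs in WT against 4840 in *LApc* and 8875 in *LApcL*, and 7 of the 9 genes had their lowest WT level there (all but *Bmp4*, at 0 in several classes, and *Bmp7*). As a level is a share of all UMIs of a class, less of a transcript and more of the abundant Paneth transcripts cannot be told apart.

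The 3 Id genes, direct Bmp targets, were detected in every class, and in WT they were lowest in Paneth-like cells. *Id1* was at 434 CPM (421 to 447) in adenoma-enriched cells of *LApc* and at 422 CPM (418 to 426) in those of *LApcL*. The next class was enteroendocrine-like in both, at 225 and 250 CPM, with no overlap. In WT, *Id1* lay between 93.9 and 169 CPM in all classes but Paneth-like cells, at 15.4 CPM, and was highest in ileal enterocyte-like cells. Thinned to 3000 UMIs, 54.3% of *LApc* and 63.0% of *LApcL* adenoma-enriched cells held an *Id1* UMI, against 27.5% and 39.7% of the other Wnt/TA-like cells.

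*Id3* had the same order at its upper end. It was at 610 CPM (594 to 625) in adenoma-enriched cells of *LApc* and 645 CPM (640 to 649) in those of *LApcL*, followed by enteroendocrine-like cells at 324 and 417 CPM. In WT it ranged from 91.3 CPM in tuft-like to 204 CPM in ileal enterocyte-like cells, with 16.1 CPM in Paneth-like cells. Adenoma-enriched cells held 46.7% of all *Id3* UMIs of the *LApc* library and 85.3% of those of *LApcL*, and were 13.0% and 59.5% of the kept cells. Of the UMIs of all genes they held 9925683 of 62715703 in *LApc* and 105457591 of 156782313 in *LApcL*, the like measure.

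*Id2* differed from the other Id genes in that other classes reached the level of the adenoma cells. In *LApc*, 87 tuft-like cells were at 336 CPM (283 to 396), enteroendocrine-like cells at 253 CPM (231 to 277) and adenoma-enriched cells at 230 CPM (221 to 240), and the last pair overlapped. In *LApcL*, enteroendocrine-like cells were at 227 CPM (208 to 248), above adenoma-enriched cells at 187 CPM (184 to 189), which overlapped with tuft-like cells at 185 CPM. In WT, the same 2 classes were at 108 CPM (enteroendocrine-like) and 67.4 CPM (tuft-like). Immune markers summed to 722 CPM in tuft-like cells of *LApc*, against 76.4 CPM in WT and 122 CPM in *LApcL*, with 1 of 9 at 0 in *LApc*; their part in the *Id2* level was not tested.

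The inhibitory Smads had adenoma-enriched cells at or near the top of their order. *Smad7*, which blocks type I receptors, was at 56.7 CPM (52.1 to 61.6) in adenoma-enriched cells of *LApc* and at 34.2 CPM (33.1 to 35.3) in those of *LApcL*. Among WT classes it was highest in ileal enterocyte-like cells at 28.1 CPM and enterocyte-like cells at 20.7 CPM. *Smad6*, which acts mainly on the Bmp branch, was at 18.3 CPM (15.8 to 21.2) and 14.9 CPM (14.2 to 15.7) in adenoma-enriched cells, and at most 9.67 CPM in any WT class. In *LApcL*, *Smad7* was as high in ileal enterocyte-like cells (42.4 CPM) as in adenoma-enriched cells, and *Smad6* as high in enteroendocrine-like cells (16.6 CPM), with overlapping intervals in both. *Smad7* stood at 32.2 CPM (29.3 to 35.4) in enterocyte-like and 31.3 CPM (24.3 to 39.7) in enteroendocrine-like cells of *LApcL*. The *Smad6* interval of its ileal enterocyte-like cells (9.83 CPM, 5.62 to 16.0) also overlapped with that of adenoma-enriched cells. In *LApc* the intervals of adenoma-enriched cells overlapped with those of ileal enterocyte-like cells for both genes, at 44.1 CPM for *Smad7* and 11.1 CPM for *Smad6*, and with that of enteroendocrine-like cells for *Smad6*, at 14.1 CPM.

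Without the cells that held a *Sox17* or *Msx1* UMI, several *LApcL* levels outside the adenoma were lower. In enteroendocrine-like cells, of which 54.6% held such a UMI, *Id1* was then at 156 CPM, *Id3* at 247 CPM, *Smad7* at 19.6 CPM and *Smad6* at 4.91 CPM (1.34 to 12.6, 4 UMIs), and the intervals of both Smads lay below those of adenoma-enriched cells. *Id2* there was at 207 CPM (177 to 241), which overlapped with adenoma-enriched cells. *Bmpr1a* there was at 54.0 CPM (39.3 to 72.5) and overlapped with ileal enterocyte-like cells at 34.5 CPM. *Bmp2* in the same cells was at 4.91 CPM in place of 10.1 CPM, and *Id1* was no higher than in ileal enterocyte-like cells at 168 CPM. In Paneth-like cells *Bmpr1a* was at 8.64 CPM, *Id1* at 55.2 CPM and *Id3* at 61.8 CPM, the last 2 in place of 167 and 220 CPM. In tuft-like cells *Id3* was at 142 CPM in place of 231 CPM, while *Bmp2* was at 55.9 CPM. Among enterocyte-like cells *Bmp7* was at 1.13 CPM in place of 1.77 CPM. *Id1* and *Id3* of adenoma-enriched cells stood above all other classes with and without these cells.

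The first comparison set adenoma-enriched cells against the other Wnt/TA-like cells of the same library, which share day and library. In *LApc*, *Id2* was 11.4-fold higher (log2 ratio 3.52, 95% interval 3.35 to 3.69; 230 against 20.1 CPM), *Id3* was 6.21-fold higher and *Id1* 3.55-fold higher. *Smad7* was 4.90-fold, *Bmp7* 3.48-fold, *Smad6* 2.74-fold and *Bmp2* 2.44-fold higher. *Bmp4* had 28 UMIs against 0 and was at least 14.5-fold higher against a floor of 3 counts. *Bmpr1a* differed by a log2 ratio of 0.23, close to the median of 0.22 over all genes. With a difference called from 1.5-fold on among genes with at least 50 UMIs in both groups together, 7 of the 8 members that reached 50 UMIs were higher and 0 lower, against 29.7% of 11248 genes higher and 12% lower. The median of the 8 was 1.81.

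In *LApcL* the ratios depended on which crypt cells served for comparison. With all of them, *Id3* was 2.48-fold higher (log2 ratio 1.31, 1.27 to 1.35; 645 against 260 CPM), *Id2* 2.33-fold and *Id1* 2.09-fold, *Smad7* 2.18-fold and *Smad6* 1.71-fold. *Bmp4* had 69 UMIs against 1, a log2 ratio of 3.51 with an interval of 0.99 to 8.84. *Bmp7* (0.32), *Bmpr1a* (0.23) and *Bmp2* (-0.11) lay inside 1.5-fold. In all, 6 of 9 were higher and 0 lower, against a background of 20.4% higher and 8.99% lower of 12877 genes, with a median of 1.06 over the members and 0.16 over all genes. Scaling by trimmed mean of M-values (TMM) moved all ratios down by 0.27 in *LApc* and by 0.12 in *LApcL*, and changed the share of calls that were higher from 71.3% to 49.8% and from 69.4% to 59.3%; *Bmpr1a* was then at -0.04 in *LApc*, and 7 and 6 members were called. Without the 48.0% of other Wnt/TA-like *LApcL* cells that held a *Sox17* or *Msx1* UMI, the log2 ratios in *LApcL* were 2.30 for *Id2*, 2.24 for *Id3*, 1.76 for *Id1*, 1.66 for *Smad7* and 1.62 for *Smad6*, and again 6 members were called. *Id1* and *Smad6* were at 1.84 and 1.46 in *LApc* under the same choice. All adenoma-enriched cells were kept, and only crypt cells with adenoma transcripts were left out of the other side. *Msx1* is itself a Bmp target, so this choice selects on the pathway, and the larger ratios are given as a description. The immediate-early genes were also higher, with 6 of 7 higher and 0 lower in *LApc* and 8 of 10 higher in *LApcL* (*Atf3* at 4.87 and 2.07, *Junb* at 2.76 and 1.64 on the log2 scale), and their part in the Id and Smad levels was not tested.

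**Figure D2:**
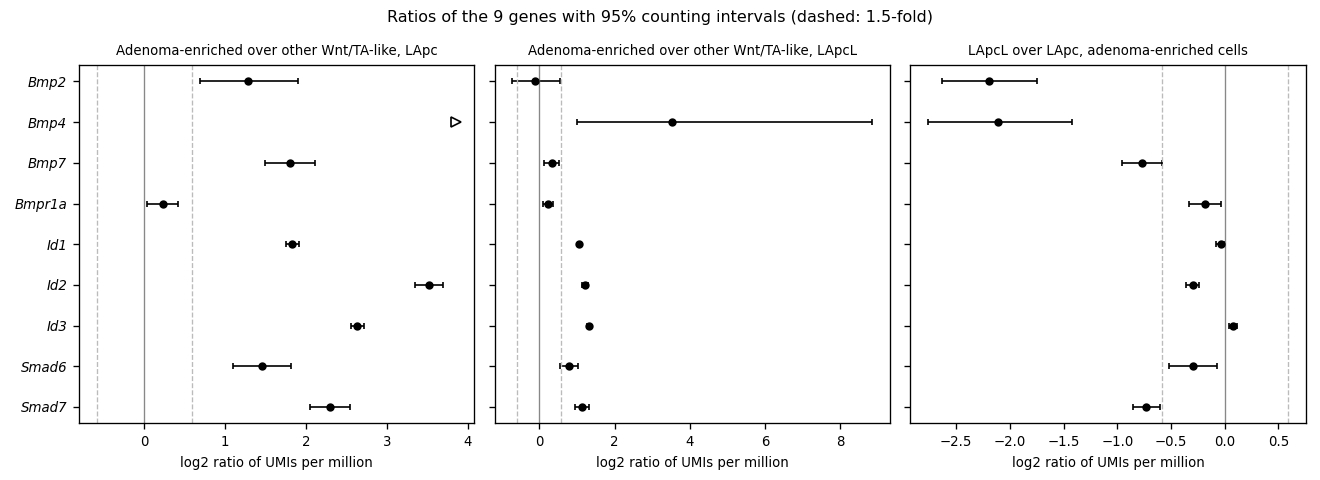
log2 ratio of CPM (horizontal axis) for each of the 9 genes (vertical axis), for adenoma-enriched over other Wnt/TA-like cells within LApc and within LApcL and for adenoma-enriched cells of LApcL over LApc. Points are ratios, bars 95% counting intervals, an open triangle is the lower bound for Bmp4 in LApc (0 UMIs in the other crypt cells), and dashed lines mark 1.5-fold. The 3 Id genes lie to the right of the upper line within both libraries, and Bmp2, Bmp4, Bmp7 and Smad7 to the left of the lower line between the libraries.

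Other genes of the pathway were counted in the same contrast. Its background was 29.7% of genes higher and 12% lower in *LApc*, and 20.4% higher and 8.99% lower in *LApcL*. Among the antagonists, 5 of 5 with 50 UMIs were higher in *LApc* and 3 of 5 in *LApcL*, with 0 lower in both and medians of 1.73 and 1.05. These were led by follistatin (*Fst*, log2 ratio 7.50 in *LApc* and 3.17 in *LApcL*), which binds activins and Bmp ligands, and by the decoy receptor *Bambi* (3.29 and 1.06). The ligand *Bmp3*, known to oppose other Bmp ligands, was lower at -3.89 in *LApc* and -4.27 in *LApcL*. *Bmp1*, a protease despite its name, was at 2.73 in *LApc* and at 0.25 in *LApcL*. In the Tgf-beta branch, 7 of 10 were higher and 1 lower in *LApc*, and 6 of 11 higher and 1 lower in *LApcL*, among them the ligands *Tgfb1* (4.82 and 2.17) and *Tgfb2* (5.25 and 2.40). Of the signal carriers, 2 of 5 and 1 of 6 were higher, while *Smad4*, the shared partner, lay inside 1.5-fold at -0.55 and -0.52. Among the helix-loop-helix partners of Id proteins, *Tcf4* (2.56) and *Tcf12* (1.53) were higher in *LApc*, and 0 of 7 higher and 1 lower in *LApcL*, the secretory factor *Atoh1* at -0.65.

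The second comparison addressed the deletion of *Lef1* and set adenoma-enriched cells of *LApcL* against those of *LApc*. The ligands and *Smad7* were lower in *LApcL*. *Bmp2* was at 6.35 CPM in *LApc* and 1.38 CPM in *LApcL* (log2 ratio -2.20, -2.63 to -1.75), *Bmp4* at 2.82 and 0.654 CPM (-2.11, -2.76 to -1.42), *Bmp7* at 28.9 and 16.9 CPM (-0.77, -0.95 to -0.59), and *Smad7* at 56.7 and 34.2 CPM (-0.73, -0.86 to -0.60). The Id targets lay inside 1.5-fold, where *Id1* differed by -0.04 (-0.08 to 0.01), *Id2* by -0.30 (-0.36 to -0.24) and *Id3* by 0.08 (0.04 to 0.12). *Smad6* was at -0.30 and *Bmpr1a* at -0.18, the latter turning to 0.05 with TMM scaling.

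In this contrast 4 of 9 members were lower and 0 higher, against a background of 22.7% lower and 5.78% higher of 12966 genes. The median was -0.30 over the members and -0.15 over all genes. TMM scaling shifted all ratios by 0.23, moved the share of calls that were higher from 20.3% to 42.9%, and left 2 calls: *Bmp2* was at -1.96 and *Bmp4* at -1.88, while *Bmp7* (-0.54) and *Smad7* (-0.50) lay inside 1.5-fold. Thinning each cell to 3000 UMIs left 2 calls of other genes, *Bmp7* at -0.71 and *Smad7* at -0.83, while *Bmp2* and *Bmp4* then had fewer than 50 UMIs. Day 29 against day 21 goes with the same contrast and cannot be told apart from genotype. Of the immediate-early genes, 7 of 10 were lower in *LApcL* and 0 higher, with *Dusp1* at -2.82, *Atf3* at -2.38 and *Jun* at -1.15, and their part was not tested.

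Further pathway genes were counted in the same contrast, for which the background was 22.7% lower and 5.78% higher and the shift under TMM 0.23. On the list of other ligands and the protease *Bmp1*, all 3 genes with 50 UMIs were lower (*Bmp1* -1.84, *Bmp3* -1.75, *Bmp8b* -0.67). Among the antagonists, 3 of 5 were lower and 0 higher (*Fst* -3.93, *Bambi* -1.73, *Nbl1* -0.94), and among the receptors 1 of 4 was lower. In the Tgf-beta branch 4 of 11 were lower and 0 higher, with *Tgfb1* at -1.01 and *Smad3* at -0.90. Of 4 other targets, 2 were higher, the homeobox genes *Msx1* (1.39) and *Msx2* (3.77, 290 against 2 UMIs). *Smad9*, a receptor-activated carrier, was higher at 0.84, the 1 call among 6 carriers. Among Id partners, *Tcf4* (-2.14), *Tcf12* (-1.02) and *Atoh1* (-0.67) were lower, and *Neurog3* (0.98) and the stem cell factor *Ascl2* (0.63) were higher.

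The adenoma-enriched cells fell into 6 subclusters, numbered 1, 3, 4, 5, 6 and 8, which allowed the same genes to be compared within like cells. *Smad7* had the higher level in *LApc* in each of the 6, such as 61.4 against 38.2 CPM in the cycling subcluster 6 and 48.5 against 34.3 CPM in subcluster 5. The intervals were apart in 4 of them (1, 3, 4 and 6). *Bmp2* was highest in subcluster 1 of *LApc*, led by *Lgals3* and *Anxa1*, at 13.1 CPM (28 UMIs), against 1.80 CPM there in *LApcL*. *Bmp7* was lowest in that subcluster in both libraries, at 10.8 and 8.21 CPM, and reached 39.1 and 22.3 CPM in subcluster 3, led by *Wfdc18* and *Lcn2*. *Id2* was highest in the cycling subcluster, at 366 CPM (332 to 403) in *LApc* and 232 CPM (225 to 239) in *LApcL*, and lowest in subcluster 5 in *LApc* (133 CPM) and in subcluster 8 in *LApcL* (143 CPM).

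*Id1* and *Id3* had different orders within the adenoma. *Id1* was at 473 and 461 CPM in subcluster 1, where *Id3* had its lowest *LApc* level at 473 CPM. In subcluster 5, led by *S100g* and *Cited1*, *Id3* was at 586 CPM in *LApc* and 736 CPM in *LApcL*, level with 732 CPM in subcluster 6, while *Id1* was at 314 and 420 CPM.

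**Figure D3:**
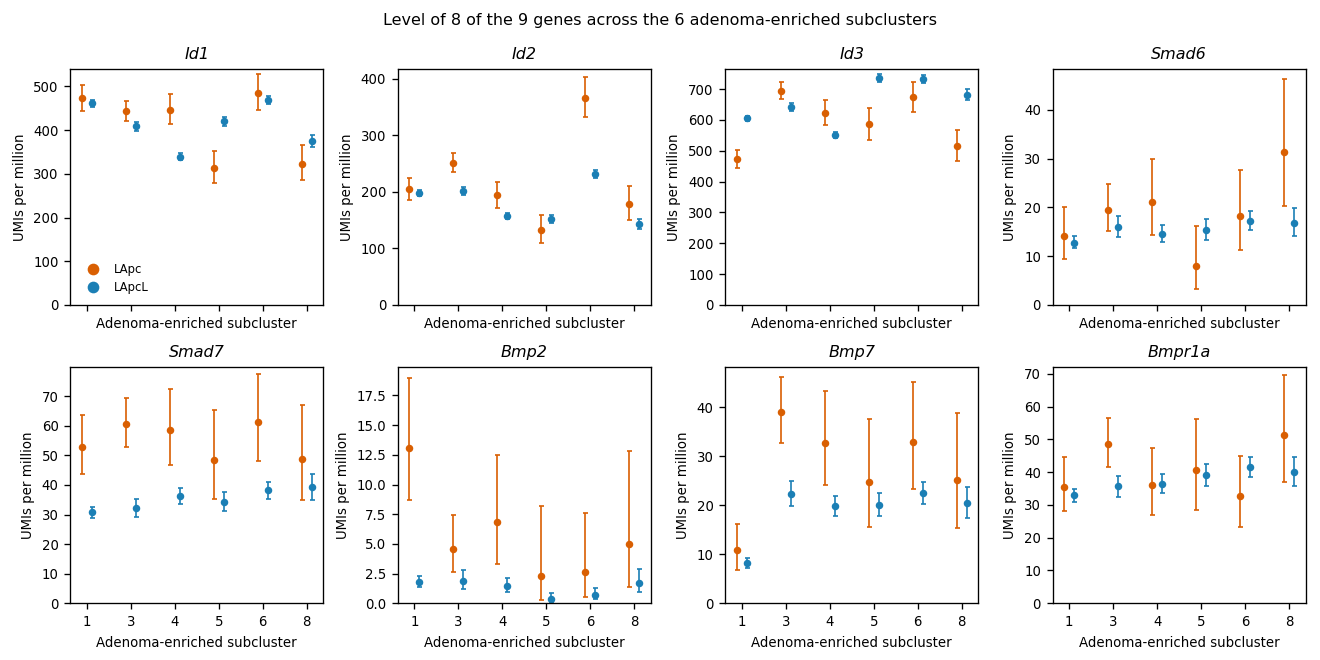
Level (CPM, linear axis from 0) of 8 of the 9 genes in the 6 adenoma-enriched subclusters (horizontal axis) of LApc and LApcL; Bmp4 is left out for its low counts. Points are sums over cells and bars exact Poisson 95% intervals. Smad7 is higher in LApc in every subcluster, and Id2 peaks in subcluster 6 at 366 and 232.

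Cells were also split by a marker of each adenoma state, the calcium-binding *S100g* or *Wfdc18*, each called high from 5 UMIs per 10000 on and above the other. *LApc* held 291 *S100g*-high and 441 *Wfdc18*-high cells and *LApcL* 5724 and 125, with 522 and 2789 cells in neither state. A *Sox17* or *Msx1* UMI was found in 89.7% of *S100g*-high and 37.0% of *Wfdc18*-high *LApc* cells, against 97.9% and 91.2% in *LApcL*. In *S100g*-high cells *Bmp7* was at 20.8 CPM (15.5 to 27.3) in *LApc* and 18.6 CPM (17.6 to 19.6) in *LApcL*, whereas in *Wfdc18*-high cells it was at 39.5 CPM (33.2 to 46.6) and 17.6 CPM (10.9 to 27.0). In cells of neither state it was at 24.5 CPM (19.8 to 29.9) and 13.4 CPM (12.2 to 14.7). The intervals of the libraries overlapped in *S100g*-high cells and were apart in both other groups, and whether the states differed in this was not tested. *Smad7* was at 61.2 and 34.8 CPM in *S100g*-high cells and at 57.5 and 44.5 CPM in *Wfdc18*-high cells, where the intervals overlapped, and at 53.1 and 32.6 CPM in cells of neither state. *Bmp4* was at 4.80 and 0.811 CPM in *S100g*-high cells, on 12 and 57 UMIs, and the 12 lay in 6 cells. It was at 3.09 and 0.295 CPM in cells of neither state, on 12 and 10 UMIs, and rested on 4 and 2 UMIs in *Wfdc18*-high cells.

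The third comparison set the other Wnt/TA-like cells of each mutant library against those of WT. Both mutant libraries were set against the same WT cells. In *LApc*, *Id2* was lower at 20.1 CPM against 50.5 CPM (log2 ratio -1.33, -1.51 to -1.15). It was the 1 call among 8 members with 50 UMIs, against a background of 3.74% lower and 9.79% higher of 11164 genes. *Id3* was at 98.2 against 142 CPM (-0.53), *Id1* was at 122 CPM in both (0.00, -0.08 to 0.08), and *Bmpr1a* was at 35.6 and 35.5 CPM. With TMM scaling the share of calls that were higher went from 72.4% to 61.4% and *Id3* (-0.61) was also called lower.

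In *LApcL* the direction was the opposite. *Id1* was at 202 CPM against 122 CPM in WT (log2 ratio 0.73, 0.66 to 0.79), *Id2* at 80.3 against 50.5 CPM (0.67, 0.57 to 0.77), *Id3* at 260 against 142 CPM (0.88, 0.82 to 0.94) and *Smad6* at 8.71 against 5.30 CPM (0.72, 0.40 to 1.04). *Bmp2* was lower at 1.49 against 3.21 CPM (-1.11, -1.78 to -0.48). These were 4 higher and 1 lower of 8 members, against 10.5% higher and 6.66% lower of 11282 genes. *Bmp7* (0.55) and *Smad7* (0.47) had intervals above 0 and lay inside 1.5-fold.

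These levels were recomputed without cells that held adenoma transcripts. Without cells that had a *Sox17* UMI, *Id1* was at 184 CPM, *Id2* at 71.6 CPM, *Id3* at 232 CPM and *Smad6* at 8.14 CPM. The 4 calls left were *Id1*, *Id3* and *Smad6*, all higher, and *Bmp2*, which was lower, while *Id2* lay inside 1.5-fold. Without cells that had a *Sox17* or *Msx1* UMI, *Id1*, *Id2*, *Id3* and *Smad6* were at 125, 37.9, 136 and 4.86 CPM. Under this choice *Id2* (-0.42), *Id3* (-0.06) and *Smad6* (-0.13) changed sign against WT. *Bmp2* was at 1.44 and 1.58 CPM under these choices. *Msx1* is itself a Bmp target, so leaving out its cells selects on the pathway; both choices were made after the values were seen. By subcluster, *Id1* was at 132 CPM in subcluster 0 of *LApcL*, near the 123 CPM of WT, but at 234 against 116 CPM in subcluster 2, with *Olfm4* and *Lgr5* among its leading genes, and at 281 against 129 CPM in subcluster 7. The share of *LApcL* cells with a *Sox17* or *Msx1* UMI had the same order, at 33.3%, 52.7% and 65.6%, and its part was not tested further.

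**Figure D4:**
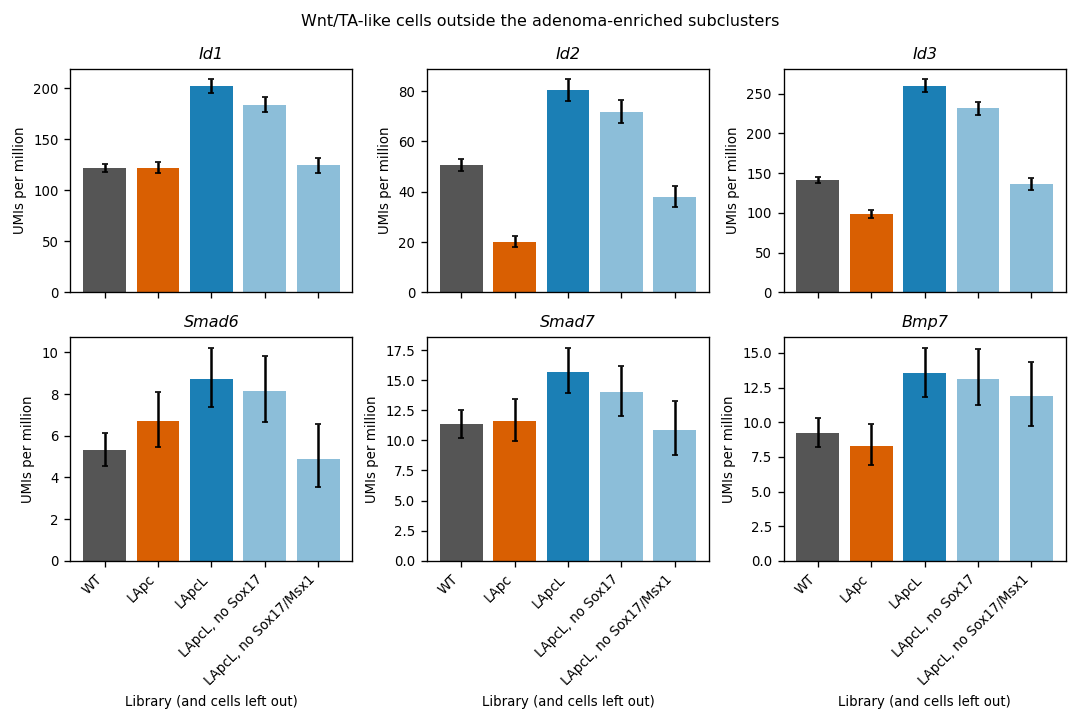
Level (CPM, linear axis from 0) in the other Wnt/TA-like (crypt) cells, by library and with cells holding adenoma transcripts left out (horizontal axis). Bars are sums over cells, with exact Poisson 95% intervals. Id1 in LApcL is at 202 with all cells, at 184 without Sox17 cells and at 125, near the WT level of 122, without Sox17 or Msx1 cells.

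Other pathway genes in these cells were few, and they were not recomputed without the cells that held adenoma transcripts. The background was 9.79% of genes higher and 3.74% lower in *LApc*, and 10.5% higher and 6.66% lower in *LApcL*. In *LApc*, the ligand *Bmp3* (0.82) and the protease *Bmp1* (0.63) were higher, the 2 genes of their list with 50 UMIs. The antagonists were split, *Fstl1* at 0.63 and *Bambi* at -0.62. In *LApcL*, *Bmp1* (1.27), *Acvr2b* (0.73), *Fstl1* (2.38) and *Atoh8* (1.10), a target, were higher. The Tgf-beta branch had 4 of 9 higher in *LApcL*, with *Tgfb1* at 2.16 and *Pmepa1* at 1.14. The heat-shock gene *Hspa1a* had 1600 UMIs in WT and 2 in each mutant library, while *Egr1* (1.62 in *LApc*, 1.80 in *LApcL*) and *Junb* (1.11 and 1.31) were lower in WT. These genes respond to stress and tissue handling, and their part in the comparisons with WT was not tested.

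Among enterocyte-like cells, few members differed from WT, with the same WT cells in both comparisons. In *LApc*, *Bmp7* was at 0.955 against 1.65 CPM on 59 UMIs in all (log2 ratio -0.79, -1.66 to 0.03), the 1 call of 8, against 7.95% lower and 8.92% higher of 10667 genes. In *LApcL*, *Smad7* was at 32.2 against 20.7 CPM (0.64, 0.45 to 0.83), the 1 call of 8, against 11.2% higher and 5.06% lower of 10606 genes (16.2% in all). *Smad7* was also above WT in *LApc*, at 29.7 CPM (0.52, 0.35 to 0.70). *Id1* was at 146 CPM in *LApcL* against 105 CPM (0.47, 0.38 to 0.55) and at 118 CPM in *LApc*. The *Bmp7* interval includes 0, and *Smad7* in *LApcL* was inside 1.5-fold without the cells that held a *Sox17* UMI.

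Goblet-like cells had lower *Bmp2* levels in the mutant libraries, again against shared WT cells. *Bmp2* was at 25.7 CPM in WT, 17.6 CPM in *LApc* (log2 ratio -0.55, -0.82 to -0.28) and 13.1 CPM in *LApcL* (-0.97, -1.30 to -0.65). In *LApc*, *Bmp7* (-0.71, 8.98 against 14.7 CPM) and *Id2* (-0.73, 43.6 against 72.3 CPM) were the 2 calls of 8, both lower, against 9.39% lower and 8.8% higher of 10237 genes (18.2% in all). In *LApcL*, *Smad6* (1.41, 0.63 to 2.17, on 28 and 34 UMIs) and *Smad7* (0.72, 16.0 against 9.70 CPM) were higher and *Bmp2* lower, against 16.8% higher and 5.32% lower of 10310 genes (22.1% in all). TMM scaling lowered the ratios of *LApcL* by 0.21 and changed the share of its calls that were higher from 75.9% to 46.8%; *Smad7* was then at 0.51. Without the 35.7% of goblet-like *LApcL* cells that held a *Sox17* or *Msx1* UMI, *Smad7* was at 12.4 CPM (0.35) and no longer called, *Smad6* was at 2.53 CPM on 11 UMIs, too few for a call, and *Bmp2* was the 1 call left (-0.78).

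Within the enterocyte-like class, cells of each library were ranked by the share of their UMIs in 7 villus-tip genes such as *Apoa4* and divided into 5 equal bins. *Bmp2* was higher in the highest than in the lowest bin of all 3 libraries, going from 3.58 to 15.7 CPM in WT (log2 ratio 2.13, 1.36 to 2.97), from 2.89 to 28.6 CPM in *LApc* (3.31, 2.47 to 4.25) and from 3.41 to 18.7 CPM in *LApcL* (2.46, 1.41 to 3.64, on 45 UMIs). *Smad7* went the same way, from 16.3 to 35.6 CPM in WT (1.13), 17.1 to 71.1 CPM in *LApc* (2.05) and 19.4 to 73.2 CPM in *LApcL* (1.91). *Id2* went from 33.6 to 44.6 CPM in WT (0.41), 16.7 to 37.8 CPM in *LApc* (1.18) and 18.7 to 65.2 CPM in *LApcL* (1.80). The intervals of all 3 genes lay above 0 in every library, though *Id2* in WT was inside 1.5-fold and *Bmp2* in *LApcL* had under 50 UMIs.

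*Id1* and *Id3* did not share this order. In WT, *Id3* went from 208 to 111 CPM (log2 ratio -0.91, -1.07 to -0.74) and *Id1* went from 128 to 106 CPM (-0.27, -0.45 to -0.09). In *LApc*, *Id3* went from 160 to 115 CPM (-0.48) and *Id1* from 153 to 107 CPM (-0.51). In *LApcL* both were higher at the tip, *Id1* from 118 to 201 CPM (0.78, 0.56 to 0.99) and *Id3* from 148 to 231 CPM (0.64, 0.44 to 0.83). *Sox17* went along the same *LApcL* bins from 20.1 to 56.1 CPM. Without cells that held a *Sox17* or *Msx1* UMI, the *LApcL* ratios were 0.67 for *Id1* and 0.45 for *Id3*.

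The ratio of *Bmpr1a* was 0.22 in WT, 0.37 in *LApc* and 0.70 in *LApcL*. Of the 7 members with 50 UMIs in the outer bins of WT, 3 (*Bmp2*, *Smad7* and *Id3*) differed by 1.5-fold or more, against 54% of 8205 genes (21.2% higher and 32.8% lower), which is no smaller a share. In *LApc* it was 4 of 7 (*Bmp2*, *Smad6*, *Smad7* and *Id2*, all higher at the tip) against 64.1% of 7884 genes (24.2% higher and 39.9% lower). In *LApcL* it was 5 of 5 (*Bmpr1a*, *Smad7* and the Id genes, all higher at the tip) against 61.5% of 6961 genes (28.7% higher and 32.8% lower). The full count did not hold under other choices. With *Apoa4* left out of the villus-tip genes, *Bmpr1a* in *LApcL* was inside 1.5-fold at 0.45 (-0.01 to 0.92). *Bmp2*, then on 58 UMIs, was past that limit at 2.66. Without cells that held a *Sox17* or *Msx1* UMI, *Id3* in *LApcL* was inside 1.5-fold at 0.45.

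**Figure D5:**
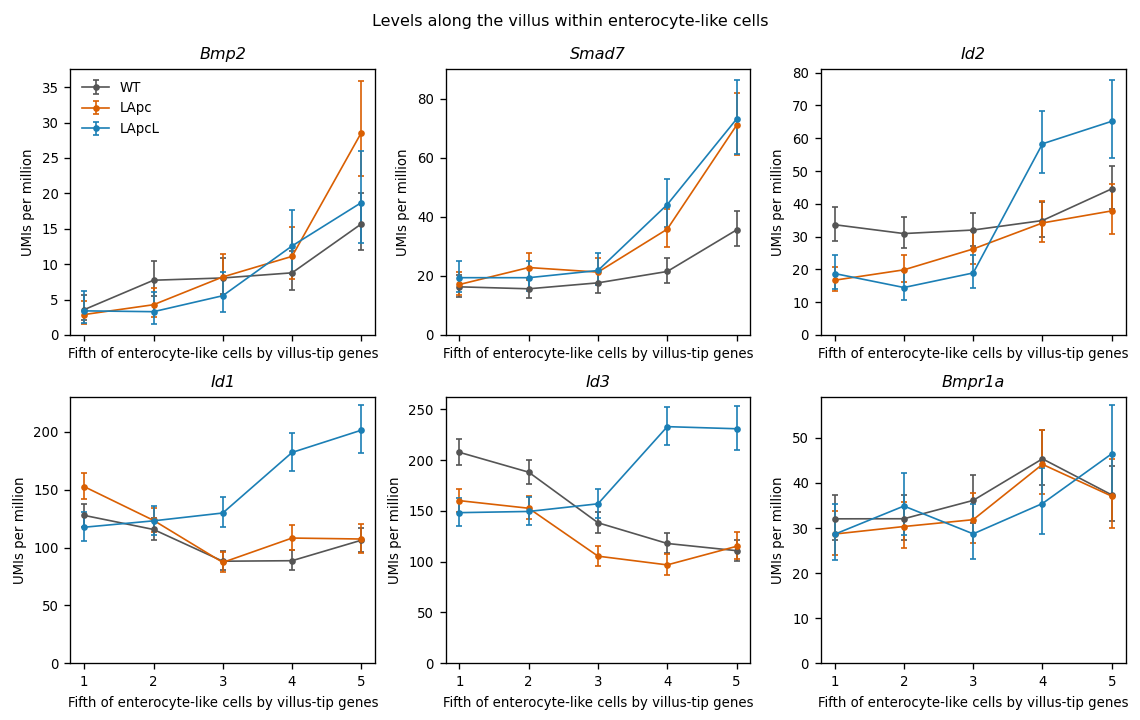
Level (CPM, linear axis from 0) in 5 equal bins of enterocyte-like cells, from lowest to highest share of villus-tip genes (horizontal axis), for WT, LApc and LApcL. Points joined by lines are sums over cells, with exact Poisson 95% intervals. Bmp2 and Smad7 are higher in the last bin than in the first in all 3 libraries, and Id1 and Id3 are higher in the last bin than in the first in LApcL but lower in WT and LApc.

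Over the 25 groups of class and library with at least 100 cells, *Id1* and *Id3* had the most alike levels among the members, with a Pearson r of 0.98 on log2(CPM + 10). *Smad6* and *Smad7* had an r of 0.86, *Id2* and *Id3* of 0.85. Among 10501 genes, the 3 most like *Bmp2* were *Trim40* (0.91), *Samd9l* (0.91) and *B4galt4* (0.90), and those most like *Bmp7* were *Tpd52l1* (0.91), *Ptpro* (0.89) and *Csrp1* (0.86). *Bmpr1a* was closest to *Brwd1* (0.95), *D15Ertd621e* (0.95) and *Cul3* (0.94). After each other, *Id1* and *Id3* were both closest to *Laptm4b* (0.94 for both) and *Fkbp1a* (0.92 and 0.90), whereas *Id2* was closest to *Dlgap4* (0.95), *Jkamp* (0.94) and *Tmem199* (0.92). For *Smad6* these were *Ptprg* (0.95), *Ddr1* (0.89) and *Sgms1* (0.88), and for *Smad7* *B4galt6* (0.94), *Tes* (0.92) and *Rps6ka4* (0.91). Groups of 1 library share depth and preparation, and the values are descriptive. *Bmp4* did not reach the 10 CPM needed.

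The Id genes were also found together in single adenoma cells thinned to 3000 UMIs. In *LApc*, 78.4% of cells with an *Id1* UMI had an *Id3* UMI, against 55.6% of cells without, and in *LApcL* the shares were 83.0% and 65.9%. For *Id2* and *Id3* they were 78.5% against 61.7% in *LApc* and 84.4% against 71.9% in *LApcL*. For the ligand *Bmp7* and *Id3* the shares lay close together, at 66.3% and 68.1% in *LApc* and at 77.6% and 76.6% in *LApcL*. In other Wnt/TA-like cells the shares for *Id1* and *Id3* were 38.9% and 29.3% in WT and 28.7% and 21.0% in *LApc*. In those of *LApcL* they were 57.0% and 34.8%. In goblet-like cells they were 53.9% and 27.5% in WT, 45.8% and 29.4% in *LApc*, and 49.8% and 37.6% in *LApcL*. Finding *Id1* and *Id3* together was thus not particular to the adenoma. Cells of 1 library are not replicates, and these shares are given as a description.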

How the data were processed

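Single-cell RNA was profiled in 3 libraries, 1 per group. The authors aligned reads to mm10 (GRCm38) with Cell Ranger 2.1.1, per the submitters' processing notes, and the deposited matrices hold UMI counts per gene and barcode, with no normalization. Barcodes in the lowest or highest 1% of gene number (230, 266 and 348 in WT, *LApc* and *LApcL*), with over 20% mitochondrial UMIs (62, 2212 and 320) or with the highest Scrublet scores, at 0.8% per 1000 barcodes (970, 1102 and 2211), were removed. Automatic Scrublet calls (2065, 4 and 755) were set aside for this rate after they were seen. The libraries were integrated with Seurat 5.3.0 on 946 features and 20 components, without the 9 genes and others whose levels are reported (71 left out in all). Cells were clustered in Seurat at resolution 0.2 with the Louvain method. The Wnt/TA-like cells were then divided into subclusters with scanpy 1.11.5, by the Leiden method at resolution 0.4. Markers of all other cell types named here were summed per class.

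UMIs were summed per library and class and given per 1000000 UMIs (CPM). Intervals (95%) are exact Poisson for levels, conditional binomial for ratios and Clopper-Pearson for shares. A ratio counts as a call from 1.5-fold on with at least 50 UMIs in both groups together. Ratios were recomputed with TMM from edgeR 4.0.16 and the other alternatives of the closing section, and the calculation was tested on simulated data. The 9 genes are all named, as are up to 6 genes of each pathway list with the largest ratios and the 3 genes most alike in level. Members and lists were chosen with earlier results of these data known.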

Additional observations from a re-analysis of the deposited data

Results flagged for a closer look

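*Id1* and *Id3* differed between the libraries in their order along the enterocyte-like cells ranked by villus-tip genes. From the lowest to the highest of 5 bins, the log2 ratio of *Id1* was 0.78 in *LApcL*, -0.27 in WT and -0.51 in *LApc*, and that of *Id3* was 0.64 in *LApcL*, -0.91 in WT and -0.48 in *LApc*. The direction in *LApcL* was opposite to that in both other libraries. The difference was not tested, as each library is a single sample. *Sox17* UMIs were also more frequent in the upper *LApcL* bins, and their part was not tested beyond leaving out the cells that held one, as given above.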

How the results depend on the processing

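No paired analysis was possible because each group was 1 library, and leaving out a replicate was impossible for the same reason. Over the 9 comparisons and the 2 counts on the class order and the villus bins, 85 alternative values lay within 1.5 times the reported count and 28 did not. Some of the 85 could not differ. The villus count was taken in WT alone, where no enterocyte-like cell held a *Sox17* or *Msx1* UMI. Leaving out *Sox17* or *Msx1* cells of other classes also left both adenoma groups unchanged. The 28 were as follows, as numbers of members called. For adenoma-enriched cells of *LApcL* against *LApc* (4 reported), TMM scaling, thinning to 3000 UMIs and a 2-fold limit each gave 2, and *Wfdc18*-high cells alone gave 1. For other Wnt/TA-like cells of *LApc* against WT (1 reported), TMM gave 2 and thinning 3. For those of *LApcL* (5 reported), classes from marker scores, leaving out cells with a *Sox17* or *Msx1* UMI and a 2-fold limit each gave 1. For enterocyte-like cells of *LApc* (1 reported), a mitochondrial limit of 10%, resolution 0.4, marker scores and a 2-fold limit each gave 0. For those of *LApcL* (1 reported), TMM, the mitochondrial limit of 10%, leaving out *Sox17* cells, leaving out *Sox17* or *Msx1* cells and a 2-fold limit each gave 0, thinning and marker scores 2, resolution 0.4 gave 3 and keeping doublets 4, a setting in which early enterocytes joined an ileal-like cluster. For goblet-like cells of *LApc* (2 reported), marker scores gave 1 and a 2-fold limit 0. For those of *LApcL* (3 reported), thinning, marker scores, leaving out *Sox17* or *Msx1* cells and a 2-fold limit each gave 1. The settings that leave out *Sox17* or *Msx1* cells or keep *Wfdc18*-high cells were chosen after seeing the data. The cause of these changes was not tested, apart from the 2-fold limit, which fewer ratios can pass. The counts for adenoma-enriched against other crypt cells (7 and 6) were within 1.5 times under every alternative run.

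Among single genes, 528 alternative ratios stayed inside the reported counting interval, 129 moved outside it, and 6 of genes that had been past 1.5-fold changed sign. The 528 include ratios between the adenomas that leaving out *Sox17* or *Msx1* cells of other classes could not change. Ratios inside 1.5-fold could also change sign, as *Bmpr1a* did under TMM scaling between the adenomas (0.05) and within *LApc* (-0.04). In other Wnt/TA-like cells of *LApcL* against WT, marker-score classes gave -0.35 for *Id2* and -0.081 for *Smad6*, and leaving out *Sox17* or *Msx1* cells gave -0.42 for *Id2*, -0.055 for *Id3* and -0.13 for *Smad6*. In enterocyte-like cells of *LApc*, marker-score classes gave 0.44 for *Bmp7*. Depth limits *Bmp4*, with 2 UMIs in WT, *Bmp2* in crypt cells, *Bmp7* in enterocyte-like cells and *Smad6* in goblet-like cells.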
